A study of Mus musculus with 8 samples.

Results

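Cytosolic ribosomal protein genes were taken as the protein-coding genes whose GRCm38 symbol begins with Rpl or Rps followed by a number and, in some, a letter, together with Rplp0, Rplp1, Rplp2 and Rpsa. Pseudogenes and the Rps6k kinases were excluded. The rule found 84 genes among the 49315 gene identifiers of the count table: 46 of the large subunit, 31 of the small subunit and 7 paralogs (Rpl3l, Rpl7l1, Rpl10l, Rpl22l1, Rpl36al, Rpl39l and Rps27l). The rule used names and no measured value.

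The libraries were polyA-selected RNA of whole esophagus from 8 male mice aged 8 weeks. EoE33 mice (n = 4) carry a transgene that overexpresses the alarmin cytokine IL-33 in the esophagus, and their wild type littermates (n = 4) are on the C57BL/6J strain. The promoter of the transgene is not given in the sources used here. The comparison asks how the transcriptome of the whole organ differs between the genotypes, so a level in it can reflect fewer cells of a type or less RNA per cell, which cannot be told apart in bulk tissue.

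Each cytosolic ribosome carries a single copy of nearly every ribosomal protein, and most of these genes are expressed at high levels. Their mRNAs start with a run of pyrimidines, the terminal oligopyrimidine or TOP motif, through which the kinase mTOR and the RNA-binding protein Larp1 control their translation. A few have a paralog used in particular tissues. Rpl3l, which takes the place of Rpl3 in ribosomes of skeletal muscle and heart, is one of them, and the mouse esophagus has a muscle coat that is largely striated.

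The annotated starts of 6 members show the kind of sequence that the TOP motif takes. Each line gives 30 bases of GRCm38.p6 from RefSeq, 15 before and 15 from the annotated start on, read on the gene's own strand, with the pyrimidine run nearest to the start in capitals. All 6 have a run of at least 7 pyrimidines, so they do not stand for the members as a whole. Rps27 and Rpl38 are among the members with the largest changes, but Rpl41, which changed more than Rpl38, has a run of only 3. Rps6 is shown because its protein is the best known target of the kinase branch of the same pathway, and the rest as further examples.
Rps27 (chr3:90213634-90213663, minus strand): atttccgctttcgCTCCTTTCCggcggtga
Rpl38 (chr11:114668565-114668594, plus strand): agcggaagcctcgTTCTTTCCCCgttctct
Rps6 (chr4:86857353-86857382, minus strand): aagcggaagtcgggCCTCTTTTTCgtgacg
Rpl28 (chr7:4792950-4792979, plus strand): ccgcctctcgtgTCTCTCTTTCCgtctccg
Rplp2 (chr7:141447636-141447665, plus strand): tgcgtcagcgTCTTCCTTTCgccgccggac
Rps18 (chr17:33955651-33955680, minus strand): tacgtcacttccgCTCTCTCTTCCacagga

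The paralog Rpl3l has annotated starts of another kind, and Rps12 is shown as a strongly changed member with no run of at least 7 pyrimidines within 5 bases of its annotated start; the stretch ccttttc at the end of its window lies farther downstream. The RefSeq table lists a pair of starts for Rpl3l.
Rpl3l, first start (chr17:24727811-24727840, plus strand): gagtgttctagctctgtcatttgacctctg
Rpl3l, second start (chr17:24732670-24732699, plus strand): gtcatcaacagctacagtgccccaaatgtc
Rps12 (chr10:23787195-23787224, minus strand): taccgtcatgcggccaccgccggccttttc

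RefSeq starts were matched for 64 of the 84 members, and for 57 of the 77 large and small subunit genes. A run of at least 7 pyrimidines within 5 bases of an annotated start was present in 26 of those 57 genes, or 45.6%, and in 16.4% of all 27025 genes of the table. Over the whole window of 300 bases, 250 before and 50 after the start, on both strands, CCGGAAG was held by 42.1% of the 57 genes and by 9.93% of all genes. CTCTTTC was held by 31.6% and 9.28%, and AAGATGGCG by 5.26% and 1.64%. These matches describe annotated starts, which can lie some bases away from the starts used in the esophagus.

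In units of 1000000 counts, library totals ranged from 22.18 to 24.07 in wild type and from 17.73 to 22.27 in EoE33. Markers of squamous esophagus were high in all 8 libraries, with Krt4, Krt13, Krt5, Krt14, Trp63 and Sox2 summing to between 51561 and 90716 CPM (counts scaled to a library of 1000000) in wild type and between 31766 and 48270.4 CPM in EoE33. Some libraries stood apart. Wild type replicate 3 held 1849 CPM of airway markers against 373 to 542 CPM in the other wild type libraries, and wild type replicate 1 held 151 CPM of liver markers against 4.49 to 11.5 CPM. EoE33 replicate 2 was the shallowest library and had the highest share of counts from Chil4, a chitinase-like protein gene that took 6.91% to 11.0% of all counts in EoE33 and at most 0.0196% in wild type.

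Ribosomal protein mRNA was a larger part of the transcriptome in EoE33 than in wild type. The 84 members together took 3.10%, 3.22%, 3.48% and 3.0% of counts in wild type replicates 1 to 4 and 4.11%, 4.51%, 4.25% and 4.10% in EoE33 replicates 1 to 4. Every EoE33 library was above every wild type library. Large subunit genes took 1.87% ± 0.12 (SD, n = 4) of counts in wild type and 2.47% ± 0.11 in EoE33, and small subunit genes 1.29% ± 0.08 and 1.73% ± 0.08. With Chil4 taken out of the totals the members' share was 3.20% ± 0.21 in wild type and 4.62% ± 0.30 in EoE33.

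Gene by gene, 45 of 46 large subunit genes and 31 of 31 small subunit genes rose in EoE33, and none fell (edgeR quasi-likelihood test, Benjamini-Hochberg adjusted p under 0.05 over 16760 genes tested). Over all genes tested, 31.3% rose and 32.1% fell, together 63.4%. The median log2 fold change was 0.39 over the large subunit genes (range 0.23 to 0.83) and 0.46 over the small subunit genes (range 0.29 to 0.73), against -0.01 over all genes tested. As fold changes the medians were 1.31 and 1.37. All 46 and all 31 genes passed the filter on low counts. Among the 1931 tested genes with a mean of at least 100 CPM, which most members exceed, 43.1% rose and 33.2% fell, with a median log2 fold change of 0.10.

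The groups did not overlap for most members. For 44 large and 31 small subunit genes the lowest EoE33 library was above the highest wild type one, an order that 29.6% of all genes tested had. The reverse order was found for Rpl3l alone among the members and for 29.9% of all genes tested. Rpl14 and Rpl24 were the exceptions. Rpl14 stood at 457, 485, 531 and 398 CPM in wild type and at 596, 505, 544 and 583 CPM in EoE33, a log2 fold change of 0.25 (SE 0.10, edgeR adjusted p = 0.0513), and it was the large subunit gene that missed the threshold. Rpl24 rose by a log2 fold change of 0.28 (SE 0.09, edgeR adjusted p = 0.020), from 56.4, 57.5, 71.1 and 56.6 CPM to 75.4, 78.0, 72.0 and 68.2 CPM, with wild type replicate 3 above the lowest EoE33 library. P-values here measure the spread among 4 mice a group.

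**Figure D1:**
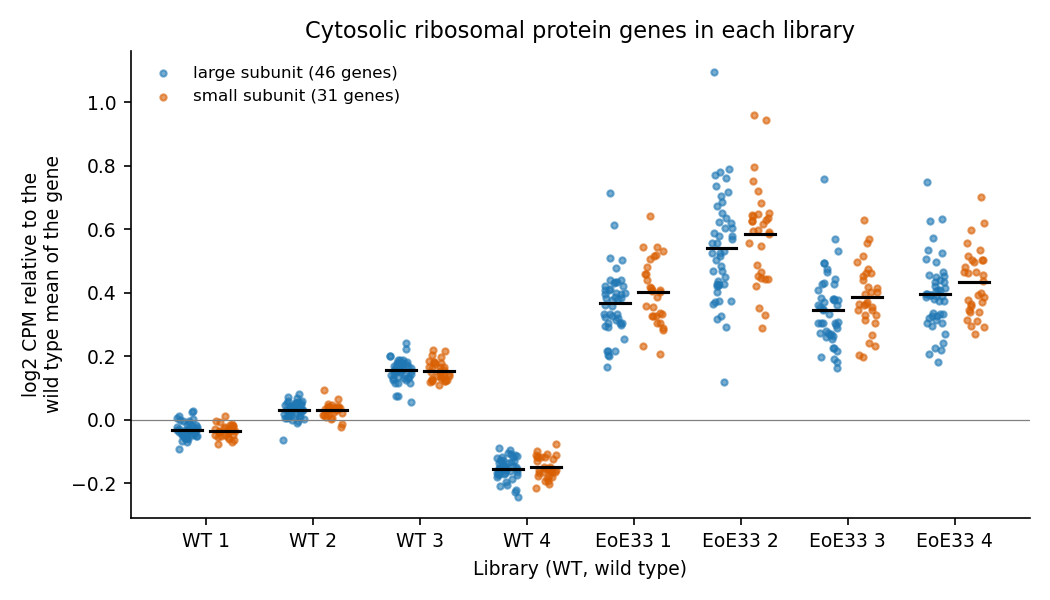
Log2 CPM of each large (blue, 46 genes) and small (orange, 31 genes) subunit gene relative to that gene's wild type mean, by library; each point is a gene and each black bar the mean over genes. The means over all 77 genes lie between -0.15 and 0.16 in the wild type libraries and between 0.36 and 0.56 in the EoE33 libraries.

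The module moved as a block within each genotype as well. Averaged over the 77 genes, log2 levels relative to the wild type mean were -0.03, 0.03, 0.16 and -0.15 in wild type replicates 1 to 4 and 0.38, 0.56, 0.36 and 0.41 in EoE33 replicates 1 to 4. Wild type replicate 3 was the highest wild type library for 76 of 77 genes and wild type replicate 4 the lowest for 76. EoE33 replicate 2 was the highest EoE33 library for 70 genes. Without EoE33 replicate 2 the median log2 fold changes were 0.36 and 0.41 for the large and small subunit, and without wild type replicate 3 they were 0.45 and 0.51. Without wild type replicates 1 and 3 together, 41 large and 31 small subunit genes rose, with medians of 0.46 and 0.51, beside 4332 of all genes tested that rose.

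Changes lay in a narrow range across the 77 genes. The fold change lay between 1.2 and 1.5 for 67 genes, above 1.5 for 5 and below 1.2 for 5. The SD of log2 fold changes over genes was 0.11. The median SE of a single gene, 0.09, does not measure that spread, because it includes differences between libraries that the members share. The ratio of summed large subunit CPM to summed small subunit CPM was 1.45, 1.46, 1.45 and 1.44 in wild type and 1.43, 1.42, 1.42 and 1.43 in EoE33. The EoE33 ratios were all below the wild type ratios, by 0.03 on the log2 scale. Across the 77 genes the log2 fold change had a Pearson r of -0.02 with the wild type level, -0.06 with transcript length and 0.15 with the share of sequence held in common with other transcripts, a description over genes that share the same 8 libraries.

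**Figure D2:**
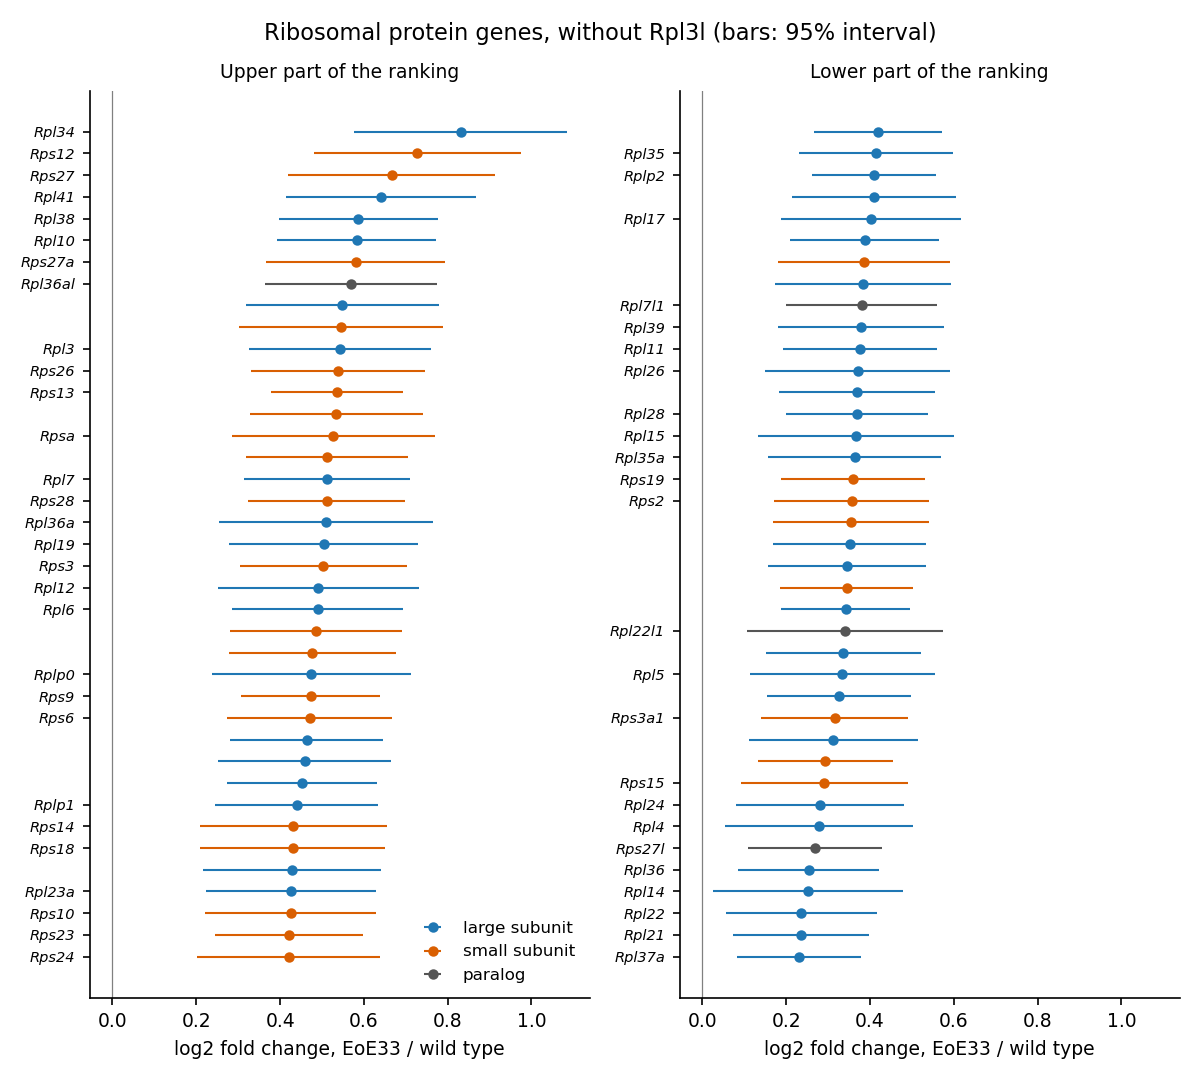
Log2 fold change of EoE33 over wild type for 78 of the 82 tested members, with 95% intervals, ranked from top left to bottom right, with the names of those described in the text; Rpl3l, at -2.67, lies off the axis, and it and 3 other tested members are not drawn. Rpl34 leads at 0.83 and Rpl37a is last at 0.23, and every point is above 0.

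The ribosomal stalk, built from Rplp0 and copies of Rplp1 and Rplp2, draws the translation factors that hydrolyse GTP onto the large subunit. All 3 stalk genes rose, by 1.33 to 1.39 times. Per kilobase of a gene's summed exons, Rplp1 and Rplp0 were the most abundant members in wild type, at levels of 1230.4 and 860.0 CPM per kilobase, and by the length of the principal transcript they led the large subunit as well, at 1230.4 and 1051. Rplp0 stood at 1373, 1475, 1619 and 1239.8 CPM in wild type and at 1902, 2232, 1837 and 1959.7 CPM in EoE33, so its groups were well apart (log2 fold change 0.47, SE 0.10, edgeR adjusted p = 0.0034).

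Rpl5 and Rpl11 join the smallest ribosomal RNA in a particle that, when free, also binds Mdm2 and so stabilises p53. Both rose, by 1.26 and 1.30 times. Rpl3 and Rpl10 lie close to the peptidyl transferase centre, and Rpl10 is among the last proteins to join the large subunit. Rpl10 stood at 545, 579.6, 622 and 528 CPM in wild type and at 804, 924, 799 and 879 CPM in EoE33, with no overlap, a log2 fold change of 0.58 (SE 0.08, edgeR adjusted p = 0.000271). The proteins that line or surround the exit tunnel, where the new peptide leaves the ribosome, rose in all 6 cases (Rpl4, Rpl17, Rpl23a, Rpl26, Rpl35 and Rpl39), by 1.21 to 1.34 times, with Rpl4 lowest.

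The largest changes in the large subunit were those of Rpl34 and Rpl41. Rpl34 (chr3:130726831-130730398, minus strand) stood at 197, 204, 241 and 185 CPM in wild type and at 338, 439.9, 348 and 346 CPM in EoE33. Its lowest EoE33 library was well above its highest wild type library, and the log2 fold change was 0.83 (95% interval 0.58 to 1.09, edgeR adjusted p = 0.00019). Rpl41, which encodes a very short basic peptide, went from 424, 456, 489 and 364 CPM to 659.6, 740.2, 639 and 665 CPM, a log2 fold change of 0.64 (SE 0.10, edgeR adjusted p = 0.000461). Rpl38, known from the tail-short mouse for its part in translating Hox mRNAs, rose by 0.59 (SE 0.08, edgeR adjusted p = 0.000271), from a mean of 102 to 153 CPM.

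At the other end, 5 large subunit genes had fold changes below 1.2. These were Rpl37a (log2 fold change 0.23), Rpl21 (0.24), Rpl22 (0.24), Rpl36 (0.25) and Rpl14 (0.25), and all but Rpl14 passed the test. Rpl22, whose loss is known to impair T cell development, stood at 244, 243, 263 and 224 CPM in wild type and at 273, 321, 272 and 281 CPM in EoE33 (SE 0.08, edgeR adjusted p = 0.0266). The gap between its groups was narrow.

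In the small subunit, Rps2 and Rps3 guard the channel where mRNA enters and Rps23 reaches the decoding site. All 3 rose, by 1.28 to 1.42 times. Of the proteins around the mRNA exit, Rps14, Rps26, Rps28 and Rpsa rose, by 1.35 to 1.45 times, with Rps14 lowest and Rps26 highest. Rpsa, which is also known as the laminin receptor, stood at 711, 761, 864 and 649 CPM in wild type and at 1007, 1224, 1047 and 1026 CPM in EoE33, again with separate groups.

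Rps6, the substrate of the S6 kinases, stood at 414, 444, 492 and 389.6 CPM in wild type and at 578, 649, 588 and 595 CPM in EoE33 (log2 fold change 0.47, SE 0.09, edgeR adjusted p = 0.00127). Rps27a, made as a fusion with ubiquitin, rose by 0.58 (SE 0.09, edgeR adjusted p = 0.000596). Per kilobase of summed exons, Rps3a1 and Rps15 had the highest small subunit levels in wild type, at 711 and 607 CPM per kilobase. The order depends on the length used: by the principal transcript, a choice made after seeing the data, Rps12 (847) and Rps2 (804) came first. The log2 fold changes of Rps3a1 and Rps15 were 0.32 and 0.29.

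The largest changes in the small subunit were those of Rps12 and Rps27. Rps12 (chr10:23785183-23787275, minus strand), which in flies reports ribosome deficits to neighbouring cells in cell competition, stood at 467, 506, 572 and 435 CPM in wild type and at 768, 948, 761 and 800.4 CPM in EoE33. The log2 fold change was 0.73 (95% interval 0.48 to 0.97, edgeR adjusted p = 0.000354). Rps27 (chr3:90212522-90213651, minus strand), a zinc finger protein, went from 205, 216, 237 and 204 CPM to 299.6, 417, 319 and 330.1 CPM, a log2 fold change of 0.67 (SE 0.11, edgeR adjusted p = 0.000608). Neither gene's groups overlapped. Rps13 and Rps9 had smaller spreads, with log2 fold changes of 0.54 (edgeR adjusted p = 0.00015) and 0.47 (edgeR adjusted p = 0.000424), each with an SE of 0.07.

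A scaling chosen after seeing the data set each member against the module's own total in place of the whole library. By construction this centres the module, and the median of all genes tested moved to -0.45, with 14.4% of them higher and 53.3% lower. Against that total, 4 members rose, Rpl34 by 0.40 (edgeR adjusted p = 0.0016), Rps12 by 0.30 (0.0075), Rps27 by 0.23 (0.0402) and Rpl41 by 0.21 (0.0328). The 4 large subunit genes that fell lay close to the threshold of 0.05. They were Rpl22 (-0.20, edgeR adjusted p = 0.0375), Rpl37a (-0.20, 0.0441), Rpl21 (-0.20, 0.0447) and Rpl36 (-0.18, 0.04998). The remaining large and small subunit genes did not pass the test on that scale.

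Many members share stretches of sequence with processed pseudogenes or sister genes. Some share them with genes whose exons overlap theirs, such as Gm28037 for Rpl24 and Fam69a for Rpl5. How reads with several matches were counted is not given in the sources used here. Of the 84 members, 70 shared at least one 150-base window of the principal transcript with a transcript of another gene, with a median of 24.2% of windows, and 20 shared more than 50%. The 9 large and small subunit genes with no shared window all rose, with a median log2 fold change of 0.34. Among the 48 with up to 50% shared, 47 rose (median 0.42), and all 20 with more than 50% shared rose (median 0.42). Counts for those 20 are therefore uncertain in level. Among the genes described here they are Rps27 (98.0% shared), Rpl5 (88.2%), Rpl10 (83.3%), Rps6 (82.4%), Rpl36a (81.1%), Rps12 (79.5%), Rps13 (75%), Rpl23a (73.2%), Rpl24 (72.5%), Rpl3 (71.0%), Rpl35 (67.0%) and Rps27a (51.9%). At this window length Rpl34 (7.58%) and Rpl41 (0.23%) share little, but with 75-base windows they share 30.5% and 31.3%. The 274 pseudogenes named after these genes took 0.0087% of counts in wild type and 0.0113% in EoE33.

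The paralogs did not move together. Of the 7, Rpl10l and Rpl39l, both known from the male germ line, were too low to test. Rpl10l had 0 counts in every library, which allows a level of up to 0.125 to 0.169 CPM in a single library from counting error alone (3 counts of its total). Rpl39l reached 13 counts in sum over the 4 wild type libraries, against 7 over the same number of EoE33 libraries. Of the 5 tested, 4 rose and Rpl3l fell.

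Rpl3l (chr17:24727820-24736143, plus strand) stood at 99.2, 113.6, 85.7 and 89.7 CPM in wild type and at 20.8, 8.12, 13.2 and 18.7 CPM in EoE33. The groups lay far apart, a mean of 97.0 ± 12.4 CPM (SD, n = 4) against 15.2 ± 5.7 CPM and a log2 fold change of -2.67 (SE 0.27, edgeR adjusted p = 5.74e-05), a 6.36-fold lower level. Its parent Rpl3 (chr15:80077791-80091868, minus strand) went the other way, from 655, 696, 780.2 and 597 CPM to 965, 1091, 955 and 964 CPM, a log2 fold change of 0.54 (SE 0.10, edgeR adjusted p = 0.000984). For every 100 counts of Rpl3 there were 11.0 to 16.3 counts of Rpl3l in wild type and 0.75 to 2.16 in EoE33. This ratio differed by -3.30 on the log2 scale (exact two-sided permutation p = 0.0286, the smallest that 4 against 4 allow, and 0.0858 adjusted over 6 ratios).

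**Figure D3:**
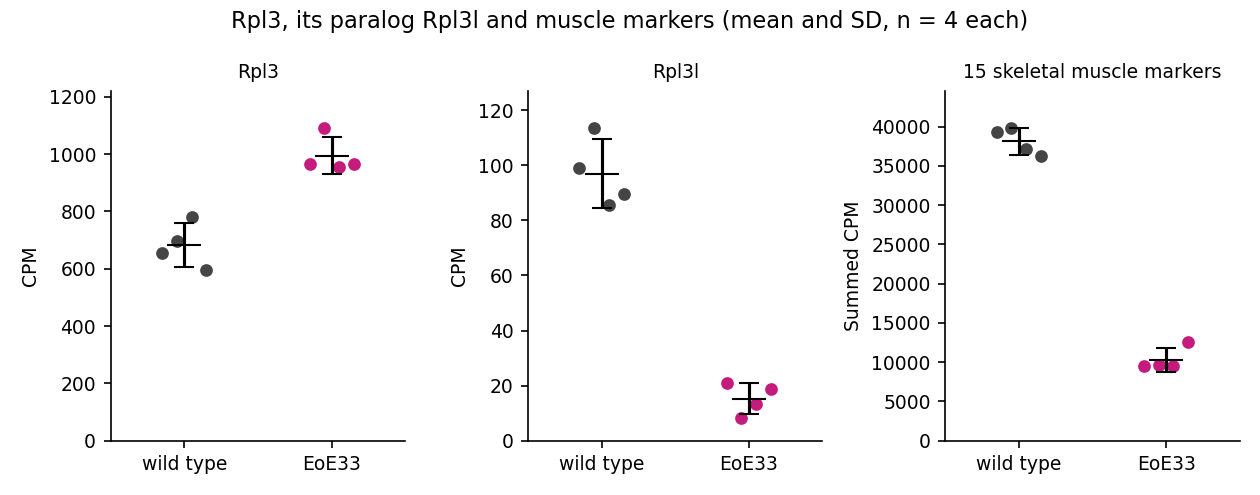
Levels of Rpl3, its paralog Rpl3l and the sum of 15 skeletal muscle markers in CPM; points are libraries and bars the mean and SD, n = 4 a group. No EoE33 point overlaps the wild type points: Rpl3 lies above them, and Rpl3l and the muscle sum lie below.

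Skeletal muscle transcripts fell together with Rpl3l. All 15 muscle markers fell, with a median log2 fold change of -2.01 (range -3.97 to -0.80), and their sum went from between 36251 and 39809 CPM in wild type to between 9475 and 12566 CPM in EoE33. Only Myh4, a fast myosin heavy chain, fell more than Rpl3l. Per 1000 CPM of summed muscle markers there were 2.53, 2.85, 2.31 and 2.47 CPM of Rpl3l in wild type and 2.18, 0.84, 1.40 and 1.49 in EoE33. The EoE33 values were all below the wild type values, by 0.86 on the log2 scale between group means, with the highest EoE33 value close to the lowest wild type value (exact two-sided permutation p = 0.0286, a comparison chosen after seeing the data). The part of the muscle markers in the fall of Rpl3l was not tested.

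Rpl36al, an intronless copy of Rpl36a, had the largest rise among the paralogs. It went from 111, 110.0, 124 and 92.5 CPM to 174, 154, 162 and 160.0 CPM, a log2 fold change of 0.57 (SE 0.09, edgeR adjusted p = 0.000518), beside 0.51 for Rpl36a. Rpl7l1 rose by 0.38 (SE 0.08, edgeR adjusted p = 0.00252), beside 0.51 for Rpl7. Rpl22l1, which is known to be held down by Rpl22, rose by 0.34 (SE 0.10, edgeR adjusted p = 0.0174) from 61.6, 65.0, 75.2 and 55.1 CPM to 91.0, 73.3, 82.3 and 78.5 CPM. Its groups overlapped, and without wild type replicate 1 its edgeR adjusted p was 0.0523.

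Rps27l, a p53 target, rose by 0.27 (SE 0.07, edgeR adjusted p = 0.00851), from a mean of 50.7 to 61.1 CPM. Relative to Rps27 it was lower in EoE33, with 22.6 to 25.4 counts per 100 counts of Rps27 in wild type and 14.9 to 21.3 in EoE33, a log2 difference of -0.39 (exact two-sided permutation p = 0.0286, 0.0858 adjusted over 6 ratios). The shared sequence of Rps27 bears on this ratio. The other 4 ratios differed by -0.13 (Rpl7l1 to Rpl7, exact permutation p = 0.1429), 0.11 (Rpl22l1 to Rpl22, 0.4571), 0.07 (Rpl36al to Rpl36a, 0.6286) and -1.24 (Rpl39l to Rpl39, 0.3143, from few counts). None of the 6 passed 0.05 after adjustment.

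**Figure D4:**
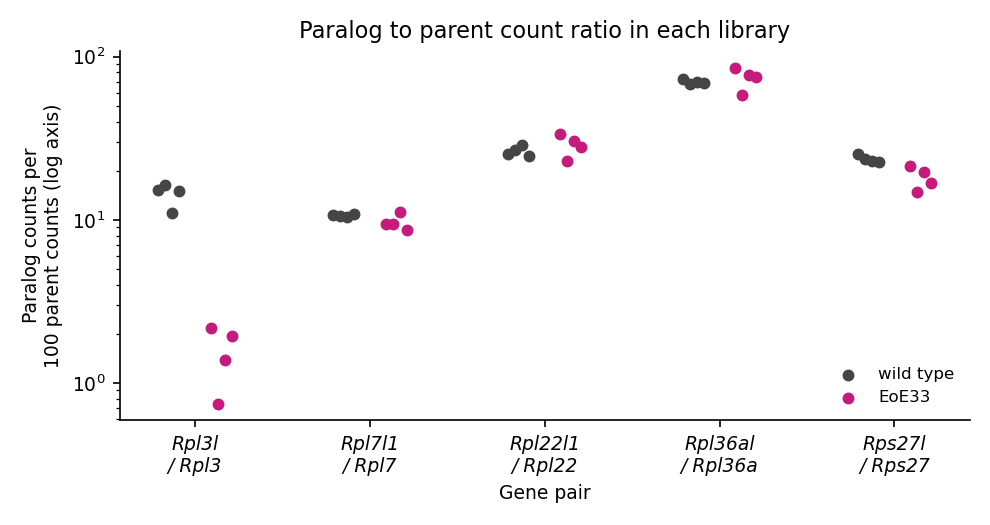
Counts of each paralog per 100 counts of its parent gene in each library, on a log axis, with Rpl39l left out for its few counts. The EoE33 points lie wholly below the wild type points for Rpl3l to Rpl3 and for Rps27l to Rps27, and the other pairs overlap.

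Genes that act with the ribosomal proteins moved less uniformly. Fau, which encodes a ubiquitin-like fusion of a ribosomal protein, and Rack1, a scaffold on the small subunit, both rose, with log2 fold changes of 0.44 and 0.52. Of 49 ribosome biogenesis genes 22 rose (44.9%) and 4 fell (8.16%), with a median log2 fold change of 0.25. Over all genes tested the shares were 31.3% and 32.1%, and among those of at least 100 CPM 43.1% and 33.2%. Without wild type replicates 1 and 3 together, 13 rose and 2 fell, beside 4332 and 4495 of all genes tested in that setting. The pre-rRNA processing factor Las1l (0.84), nucleophosmin Npm1 (0.72), the polymerase I factor Taf1d (0.63), nucleolin Ncl (0.56) and fibrillarin Fbl (0.56) were among those that rose. The 4 that fell were Polr1a (-0.43), which encodes the largest polymerase I subunit, Rrp12 (-0.38), Rrn3 (-0.24) and Ltv1 (-0.26).

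Of 26 translation factors, whose mRNAs in part also carry a TOP motif, 13 rose (50%) and 3 fell (11.5%), beside 31.3% and 32.1% of all genes tested, with a median log2 fold change of 0.22. The poly(A)-binding protein gene Pabpc1 (0.75), Eif3c (0.54) and Eif3f (0.49) rose. Eef1a2 (-1.88), the elongation factor form of muscle and neurons, Eif4a2 (-0.28) and Naca (-0.24) fell. Eef1a1, the widely expressed form of the same elongation factor, rose by 0.34.

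A list of 14 genes was set up for the pathway that controls TOP mRNAs. It also holds Myc, a transcription factor gene that is not part of that pathway. Of the 14, 3 rose (21.4%) and 9 fell (64.3%), beside 31.3% and 32.1% of all genes tested. The median log2 fold change was -0.37. The translation repressor Eif4ebp1 (0.69), Myc (0.40) and the S6 kinase gene Rps6kb1 (0.35) rose. The mTOR inhibitor subunits Akt1s1 (-0.40) and Deptor (-0.60), Tsc1 (-0.55), Tsc2 (-0.49), Eif4ebp2 (-0.42), Rps6kb2 (-0.56), Mlst8 (-0.38), Rptor (-0.36) and Mtor (-0.17) fell. Larp1 (-0.08) and Rheb (-0.09) did not pass the test. These are mRNA levels and say nothing of the activity of the pathway.

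Ribosomal proteins of the mitochondria, which are encoded in the nucleus by a separate set of genes, moved less, and mostly not upward. Of 78 tested, 4 rose (Mrpl33 at 0.51, Mrpl20 at 0.33, Mrpl36 at 0.30 and Mrpl24 at 0.22) and 23 fell, among them Mrpl42 (-0.62), Mrpl15 (-0.59) and Mrpl14 (-0.51), with a median log2 fold change of -0.09. These are shares of 5.13% and 29.5%, against 31.3% and 32.1% of all genes tested. When Chil4 counts were left out of the library sizes, 14 rose and 12 fell. That setting moved all genes upward, to a median of 0.09, so these counts do not compare with the main shares. Over all genes tested, up to 6080 rose among the alternatives, against 5238 in the main test. Transcripts encoded by the mitochondrial genome took 3.01% ± 0.18 (SD, n = 4) of counts in wild type and 1.90% ± 0.22 in EoE33.

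**Figure D5:**
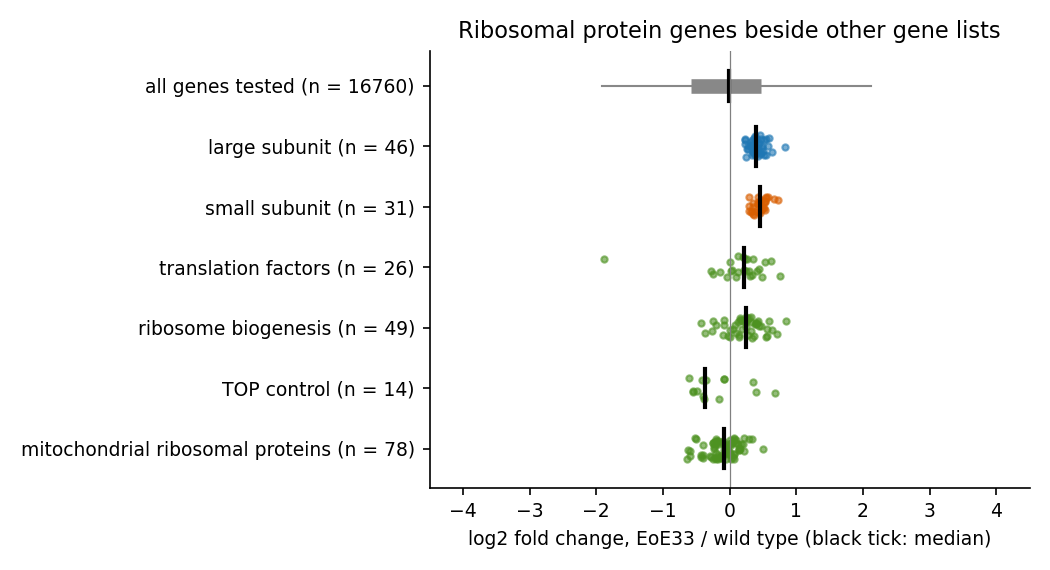
Log2 fold change of EoE33 over wild type for each tested gene of 6 lists (points) and for all 16760 genes tested (grey; the thick bar spans the quartiles and the thin bar the 5th to 95th percentile); black ticks are medians. The large and small subunit genes lie in a narrow band with medians of 0.39 and 0.46, while the mitochondrial set has a median of -0.09.

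Markers of other cell types and of division moved with the genotype beside these changes. All 6 cycling genes rose, with sums of 141 to 182 CPM in wild type and 514 to 802 CPM in EoE33, led by Mcm5 (log2 fold change 3.12). All 6 leukocyte markers rose, from sums of 32.8 to 64.7 CPM to 149 to 205 CPM, with Ccr3, an eosinophil receptor, at 5.16. Basal epithelial genes rose (Krt14 at 4.06, Krt5 at 1.97, Trp63 at 0.98 and Sox2 at 0.49) while the suprabasal keratins Krt4 (-2.25) and Krt13 (-0.96) fell. Their part in the higher levels of ribosomal protein genes was not tested. Airway markers were lower in EoE33 (55.0 to 131 CPM in sum), with 3 of 6 passing the filter on low counts, liver markers passed in 2 of 6 cases, and testis germ cell markers in none, at no more than 0.219 CPM in sum.

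Members were also set apart by whether an annotated start carries a pyrimidine run of at least 7 bases. The median log2 fold change was 0.43 over the 26 genes with a run and 0.38 over the 31 without, and the difference was not tested. Rpl34, with the largest change, has a long run at one of its annotated starts, and Rps12, with the next largest, has none within 5 bases of its annotated start.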

How the data were processed

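Polyadenylated RNA of whole esophagus from 4 EoE33 and 4 wild type mice was sequenced as paired reads of 150 bases, per the labels' protocols. The authors deposited a single table of raw counts per gene, one column per library, and the labels tie each column to its library by spreadsheet letter, with 0 columns unused. The submitters' processing notes name Trimmomatic 0.36, STAR 2.5.2b, featureCounts, Subread 1.5.2 and the build GRCm38. The sources used here do not give the annotation release, the use of strand or the treatment of reads with several matches. Identifiers were matched to GENCODE M21 (49056 of 49315, 259 unmatched), which gave symbols, positions and lengths. CPM are counts scaled to 1000000 by TMM library size.

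Genes were tested in R 4.3.3 with edgeR 4.0.16 (filterByExpr, TMM, robust glmQLFit, glmQLFTest, genotype the sole term, Benjamini-Hochberg threshold 0.05). Paralog ratios used exact permutation over 70 orderings with 0.5 counts added. Replicates of a group differed by far more than sampling noise (chi-square over degrees of freedom of 10.4 or more in all 12 pairs), so none was counted as a duplicate. Named genes were Rpl3, the paralogs and their parents, the members of each role group, the smallest p-values and largest changes of each subunit and list, and the 2 most abundant per kilobase. The members with the smallest changes, Rpl14, Rpl24 and further list genes were named after their values were seen. Members and lists were chosen with earlier results of these data known. A few genes are counted in the totals and not reported here singly. The fitting script was tested on simulated data. Alternatives were DESeq2 1.42.0 and limma 3.58.1, other scalings, filters and thresholds, a replicate block and leaving out libraries.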

Additional observations from a re-analysis of the deposited data

Results flagged for a closer look

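In each group of 4 libraries the highest and lowest values were compared with the rest of their group. This was done for the tested members, except the few not reported here singly. It was also done for each subunit's share of counts and for the ratio of large to small subunit CPM. In 18 of these 164 groups a value was set apart beyond Dixon's 95% limit. Chance sets about 1 in 20 groups apart. In 17 of the 18 the value was that of EoE33 replicate 2, the shallowest library, and it was the highest of its group. The members share each library, so these groups are not independent.

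For the large subunit, EoE33 replicate 2 stood at 739.8 CPM for Rpl12 (578 to 604 in the other EoE33 libraries), 416 for Rpl15 (322 to 333), 641 for Rpl19 (514 to 534), 321 for Rpl22 (272 to 281), 477 for Rpl26 (379 to 386) and 1091 for Rpl3 (955 to 965). It stood at 439.9 CPM for Rpl34 (338 to 348), 320.1 for Rpl35a (264 to 271), 219.6 for Rpl36 (198 to 199.8), 266 for Rpl36a (203 to 214) and 800.0 for Rpl6 (693 to 711).

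For the small subunit, it stood at 415 CPM for Rps10 (351 to 358), 307 for Rps13 (284 to 287), 704 for Rps14 (549 to 557), 369.6 for Rps19 (341 to 343), 748 for Rps24 (594 to 620.0) and 1048 for Rps3 (928 to 947). Without this library 44 large and 30 small subunit genes rose, beside 5034 of all genes tested.

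The remaining value was Rpl24 in wild type replicate 3, at 71.1 CPM against 56.4 to 57.5 CPM in the other wild type libraries.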

How the results depend on the processing

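Apart from the scaling to the module's own total, no large or small subunit gene fell under any alternative run. In the 20 settings compared gene by gene, 68 of the 77 passed the test every time. Those settings leave out that scaling and the stricter thresholds given below. The 9 that did not included Rpl14, which missed it from the start, and Rpl37a, Rpl22, Rpl21, Rps15, Rpl4, Rpl24 and Rpl36. Requiring a log2 fold change of at least 0.5 left 9 large and 11 small subunit genes, beside 3582 higher and 4139 lower among all 16760 genes tested. The paralogs Rpl22l1 (0.34), Rpl7l1 (0.38) and Rps27l (0.27) did not pass at that setting. At an adjusted p under 0.01, 36 large and 29 small subunit genes rose, beside 4151 of all 16760 genes tested. Rpl22l1 (0.34) missed that threshold as well. Leaving out each library in turn gave 40 to 46 large and 29 to 31 small subunit genes higher, beside 4825 to 5160 of all genes tested. The log2 fold change was then -2.85 to -2.46 for Rpl3l and 0.27 to 0.42 for Rpl22l1, whose edgeR adjusted p was 0.0523 without wild type replicate 1. With Chil4 counts left out of the library sizes, a setting added after seeing the data, the medians were 0.50 and 0.56 for the large and small subunit and 0.09 for all genes tested.

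The same omissions gave a log2 difference of -0.47 to -0.30 for the ratio of Rps27l to Rps27, with an exact permutation p of 0.0286 without any single EoE33 library and 0.0571 without any single wild type library. They gave -0.21 to -0.085 for Rpl7l1 to Rpl7, with an exact permutation p of 0.0286 without EoE33 replicate 3. They gave -0.0096 to 0.18 for Rpl36al to Rpl36a, the sign of which turned without EoE33 replicate 1 and whose exact permutation p was 0.0286 without EoE33 replicate 2. The cause was not tested.

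Replicate numbers did not pair the libraries. For this check each library was taken as its deviation from its group mean, gene by gene, over the 5000 most abundant genes. The deviations of same-numbered libraries had correlations of 0.14, -0.21, 0.01 and -0.19. By these deviations 1 of 4 wild type libraries correlated best with its own number. With the replicate block, 43 large and 31 small subunit genes rose, beside 4936 higher and 5120 lower among all genes tested. The blocked ratios were -3.30 for Rpl3l and -0.39 for Rps27l, each with an exact permutation p of 0.125, the smallest that 4 pairs allow.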
